A study of Homo sapiens with 12 samples.

Results

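The genes described here are 38 transcripts of blood vessel endothelium and vascular matrix, looked up by symbol in 6 expression tables of 26372 genes each. Of these, 24 are endothelial genes and 14 are matrix or mesenchymal genes that endothelial cells share with other cell types. All 38 were found, and 36 reached 1 FPKM in some group. The list was chosen from these data because most of its genes were high in one group, so the levels in that group are given as a description with no test.

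HCT116, a human colorectal carcinoma line of epithelial character, was used either wild type (WT) or with a knockout of KDM3A (KO), a histone H3 lysine demethylase. Each genotype was sampled in 3 states: mock cells in normal culture, starved cells moved to medium without serum, and refed cells that received fetal bovine serum after 24 h of starvation. The labels list 12 samples, 2 per group, but the 6 tables have 1 column per group and do not say how the 2 samples enter it. Each table is attached to the replicate 1 sample but its column is named for the group only, so whether a value is 1 sample or a pool is not known. Thus there is 1 value per group and no spread between replicates. FPKM counts fragments relative to transcript length and to the number of mapped fragments, so levels of different genes can be compared per length. Whether the KO is 1 clone is not stated in the labels. KDM3A was at 41.3, 17.8 and 19.8 FPKM in WT mock, starved and refed and, for KO, at 3.15, 3.01 and 3.59 in that order of states.

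Endothelial cells line blood vessels. They are held together by VE-cadherin (CDH5) and PECAM1, respond to vascular endothelial growth factors and angiopoietins through the receptors KDR, FLT1, FLT4 and TEK, and store von Willebrand factor (VWF) for release at injury. ETS-family transcription factors such as ERG and FLI1 and SOX-family factors such as SOX7 and SOX18 keep this programme active. Vascular basement membrane is built from type IV collagen, laminin and perlecan. Colorectal carcinoma cells are epithelial and are not known for this programme.

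The stretch just upstream of the gene start is shown for some endothelial members. They reached 10 FPKM in WT mock and stayed under 1 FPKM in every other group. Of these 7 genes, ENG, TIE1, APLN and ECSCR had an entry in the RefSeq promoter table (GRCh38.p14). VWF, PECAM1 and CDH5 had none. EGFL7, a member at 44.2 FPKM or more in all groups, is shown for contrast. Each run holds the 250 bases before the start, 5′ to 3′ on the gene's strand, and capitals mark the ETS-type hexamers AGGAAG and CGGAAG on either strand.
ENG: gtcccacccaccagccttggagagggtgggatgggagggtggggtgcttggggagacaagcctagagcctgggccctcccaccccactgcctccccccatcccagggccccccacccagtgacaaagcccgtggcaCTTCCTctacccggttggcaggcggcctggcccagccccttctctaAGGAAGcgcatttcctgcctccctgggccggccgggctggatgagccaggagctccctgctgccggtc
TIE1: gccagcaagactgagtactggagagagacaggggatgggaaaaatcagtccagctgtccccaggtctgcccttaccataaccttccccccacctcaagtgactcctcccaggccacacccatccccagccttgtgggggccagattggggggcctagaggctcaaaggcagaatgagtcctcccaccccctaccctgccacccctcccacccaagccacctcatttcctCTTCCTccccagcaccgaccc
APLN: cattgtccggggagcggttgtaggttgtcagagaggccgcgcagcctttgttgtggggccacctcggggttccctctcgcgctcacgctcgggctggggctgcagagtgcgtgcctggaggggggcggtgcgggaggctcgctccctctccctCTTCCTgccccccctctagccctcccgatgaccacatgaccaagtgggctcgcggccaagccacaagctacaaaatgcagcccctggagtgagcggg
ECSCR: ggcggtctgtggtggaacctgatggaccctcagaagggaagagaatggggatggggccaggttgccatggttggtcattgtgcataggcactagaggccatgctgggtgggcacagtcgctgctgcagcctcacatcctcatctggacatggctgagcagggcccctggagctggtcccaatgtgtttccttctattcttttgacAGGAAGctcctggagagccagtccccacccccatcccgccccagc
EGFL7: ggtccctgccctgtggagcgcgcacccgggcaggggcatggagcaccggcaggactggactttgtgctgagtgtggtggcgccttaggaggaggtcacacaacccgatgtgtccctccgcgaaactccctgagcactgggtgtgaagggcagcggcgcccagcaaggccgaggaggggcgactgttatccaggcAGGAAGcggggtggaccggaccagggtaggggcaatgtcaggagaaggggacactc

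These windows lie at chr9:127854659-127854908 (minus strand), chr1:43300732-43300981 (plus), chrX:129654957-129655206 (minus), chr5:139462744-139462993 (minus) and chr9:136658606-136658855 (plus). ENG has the hexamer at 2 positions, which begin at -114 and -68 from the gene start, and the other 4 have it once. Of the 15 endothelial members with an entry, taking the first listed start of each, 10 (66.7%) held AGGAAG on either strand and 0 held CGGAAG. Over all 27305 genes of the table, 28.7% held AGGAAG and 16.8% held CGGAAG. Either of the 2 hexamers was in 66.7% of the 15 and in 41.0% of all genes. The GATA-type hexamer AGATAA was in 1 of the 15 (6.67%) and in 9.37% of all genes. These are matches of letters in a short window. They are not binding sites, and EGFL7, which was not 2-fold above the other groups in WT mock, has the hexamer too. Whether the hexamer bears on the levels was not tested.

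The plot of all members by group shows 1 column unlike the rest. In WT mock 22 of the 24 endothelial genes and 13 of the 14 matrix genes reached 1 FPKM, against 4 or 5 endothelial and 3 to 5 matrix genes in each of the other groups. A member was counted as higher when its log2(FPKM + 1) was at least 1 above that of every other group, which is 2-fold on that scale. By this count 31 of the 38 were higher in WT mock, 19 endothelial and 12 matrix, where 1.78% of 13456 measured features were. At 4-fold the count was 24 of 38, beside 0.706% of features, and 0 were 2-fold below all other groups, where 0.141% of features were. No member was 2-fold above every other group in any of the other 5 groups, where 0.29%, 0.305%, 0.178%, 0.163% and 0.386% of features were (starved and refed WT cells, then mock, starved and refed KO cells). Since the choice of members used the WT mock level, nothing is read from any of these counts. In bulk RNA, RNA of endothelial cells in the WT mock column and a higher level in the HCT116 cells themselves cannot be told apart. Neither was tested.

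**Figure D1:**
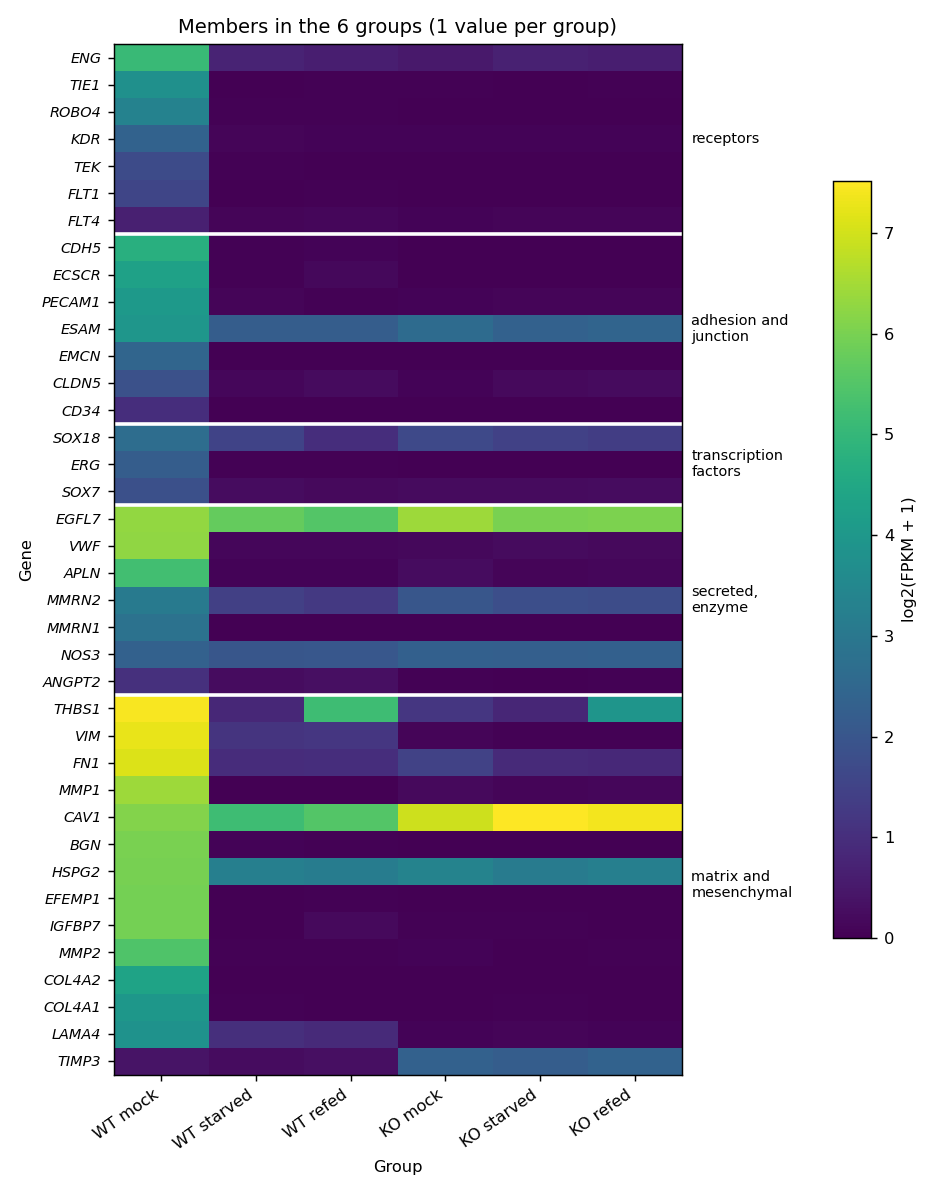
Level of the 38 members in each group, as log2(FPKM + 1) in colour, 1 value per group, with genes grouped by role and ordered within a role by the WT mock level. Most genes are bright only in WT mock. EGFL7, CAV1, HSPG2, ESAM and NOS3 are visible in all 6 columns, and MMRN2 and SOX18 more faintly. THBS1 is also visible in the refed columns and TIMP3 in the KO columns.

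The junction and adhesion proteins include the genes most used to recognise endothelium. Values outside WT mock are given from here on in 1 order: starved and refed WT cells, followed by mock, starved and refed KO cells. CDH5, the adhesion molecule of endothelial junctions, was at 25.8 FPKM in WT mock against 0.0311, 0.0622, 0, 0 and 0.00359 elsewhere, so it was listed at 0 in KO mock and KO starved. PECAM1, which joins endothelial cells and also marks platelets and some leukocytes, was at 15.5 FPKM in WT mock against 0.0638, 0.0388, 0.0627, 0.0773 and 0.0681 elsewhere. ECSCR, an endothelial surface protein linked to cell movement, was at 18.7 FPKM and 0.029, 0.121, 0.0167, 0 and 0. All 3 were at least 155 times higher in WT mock than in the highest other group. ESAM, a junction molecule of endothelium and platelets, was different in that it was present throughout: it was at 14.4 FPKM in WT mock against 3.69, 3.69, 5.19, 4.07 and 4.33 elsewhere, a log2 difference of 1.32 to the highest other group. EMCN, a sialomucin of venous and capillary endothelium, and CLDN5, a tight junction claudin, were at 4.43 and 2.68 FPKM in WT mock against at most 0.0146 and 0.16 elsewhere. CD34, a surface marker of small vessels and blood progenitors, was at only 0.989 FPKM in WT mock against at most 0.0204 elsewhere.

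Among the receptors, ENG led. This co-receptor for TGF-beta and BMP ligands was at 33.2 FPKM in WT mock against 0.683, 0.537, 0.419, 0.605 and 0.539 elsewhere, so it was low but detected in every group. TIE1, the orphan partner of the angiopoietin receptor, was at 12.8 FPKM and 0.0188, 0.0229, 0.0266, 0.00741 and 0.0334. ROBO4, a guidance receptor of vessels, was at 9.06 FPKM and 0.0303, 0.037, 0.0161, 0.00798 and 0.0119. The receptors for growth factors themselves were lower. KDR, TEK, FLT1 and FLT4 were at 4.17, 2.29, 1.97 and 0.578 FPKM in WT mock, in that order, and each was at most 0.0849 FPKM, the WT refed value of FLT4, in any other group. FLT4, the receptor of lymphatic endothelium, and CD34 are the 2 members under 1 FPKM in every group.

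ERG, SOX18 and SOX7 are the transcription factors of the list. ERG was at 3.64 FPKM in WT mock, at 0.041 and 0.0361 in WT starved and refed, and listed at 0 in all 3 KO groups. SOX7 was at 2.54 FPKM and at most 0.201 elsewhere. SOX18 was at 5.46 FPKM in WT mock but also at 1.85, 0.981, 2.14, 1.74 and 1.59 elsewhere, so its log2 difference was 1.04. In WT mock ERG and SOX7 lay between FLT1 and KDR in level, and SOX18 was detected at about 1 FPKM or more in all groups.

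The secreted endothelial proteins and enzymes were of 2 kinds by their levels. VWF was at 75.9 FPKM in WT mock against 0.0898, 0.0949, 0.113, 0.159 and 0.151 elsewhere. APLN, the ligand apelin of sprouting vessel tips, was at 37.3 FPKM and 0.0479, 0.0569, 0.198, 0.0722 and 0.087, and MMRN1, a multimerin of platelets and endothelium, at 6.17 and 0.0179, 0.0153, 0.0146, 0 and 0.00292. These 3 were 188 to 478 times higher in WT mock than in the highest other group. EGFL7, a secreted regulator of vessel assembly, belonged to the other kind, with 77.2 FPKM in WT mock against 52.5, 44.2, 84.3, 63.8 and 65.1 elsewhere. It was highest in KO mock. NOS3, the endothelial nitric oxide synthase, was at 4.01 FPKM in WT mock against 3.08, 3.08, 3.96, 3.86 and 3.92 elsewhere, a log2 difference of 0.01 to the highest other group. MMRN2, a matrix protein of endothelium, stood between both kinds at 7.34 FPKM and 1.67, 1.4, 3.06, 2.49 and 2.38. ANGPT2, an angiopoietin released by activated endothelium, reached 1.04 FPKM in WT mock, with 0.18 and 0.245 in starved and refed WT cells and at most 0.0370 in KO.

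Matrix and mesenchymal genes made up most of the members' summed level in WT mock, with 958.2 FPKM against 367.2 for the endothelial genes. VIM, the intermediate filament of mesenchymal cells, was at 153 FPKM in WT mock against 1.21, 1.29, 0.064, 0.0351 and 0.0212 elsewhere. FN1, fibronectin, was at 139.6 FPKM and 0.95, 0.98, 1.78, 0.857 and 0.834. THBS1, thrombospondin, was at 175 FPKM and 0.798, 35.7, 1.29, 0.764 and 14, and was thus the most abundant member in WT mock and the only one of the 38 with a clear level in both refed groups and little in starved cells. Of the secreted or pericellular proteins, BGN (a small proteoglycan), EFEMP1 (a fibulin) and IGFBP7 (a binding protein of vessel basement membrane), were close to each other in WT mock at 64, 61.2 and 60.2 FPKM. In the other groups BGN was at 0.0421, 0.0258, 0.0124, 0 and 0.00618, EFEMP1 at 0.0169, 0.0247, 0, 0 and 0 and IGFBP7 at 0.0112, 0.132, 0.0272, 0.0254 and 0.0138. EFEMP1 was therefore listed at 0 in all 3 KO groups, like ERG.

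The collagenase MMP1 was at 84.3 FPKM in WT mock against 0.00657, 0.0082, 0.143, 0.0664 and 0.099 elsewhere. The gelatinase MMP2 was at 43.1 FPKM and 0.0262, 0.0289, 0.0474, 0.0185 and 0.0377. COL4A1 and COL4A2, which form the main type IV collagen of basement membrane and are transcribed from a shared start region in opposite directions, were at 14.7 and 19.8 FPKM in WT mock. Elsewhere COL4A1 was at 0.0377, 0.0113, 0.0202, 0.0358 and 0.0201 and COL4A2 at 0.00995, 0.0124, 0.00736, 0.0204 and 0.0117. HSPG2, perlecan, was at 61.9 FPKM in WT mock, and between 7.79 and 9.38 in the other groups. LAMA4, a laminin chain of vessel basement membrane, was at 13.3 FPKM in WT mock against 1.02, 0.846, 0.044, 0.0661 and 0.0462 elsewhere, so the level in the other WT groups was near 1 FPKM and that in KO was at most 0.0661. Only CAV1 and TIMP3 of the 14 were not highest in WT mock.

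**Figure D2:**
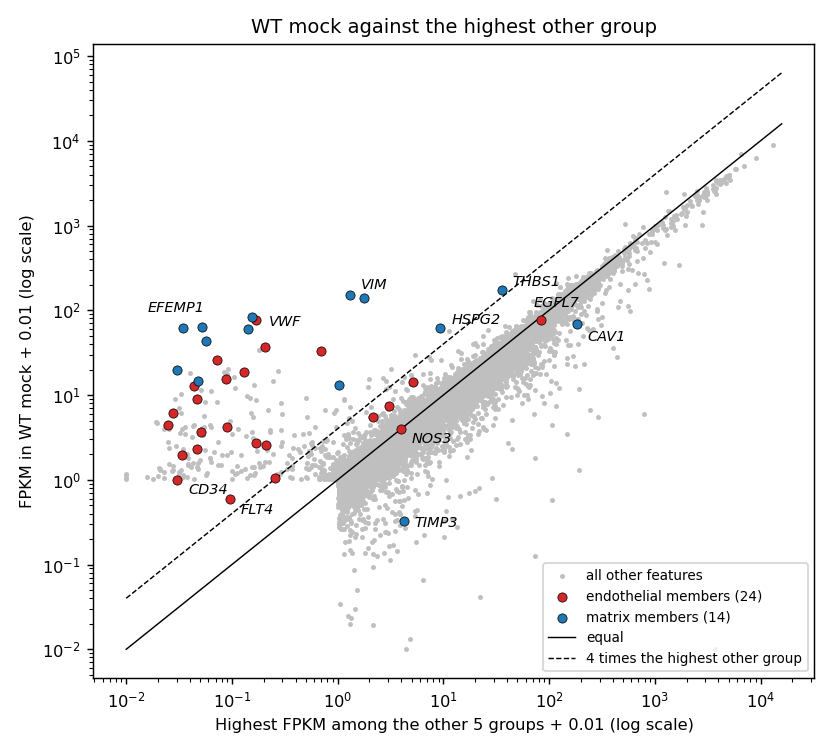
FPKM in WT mock against the highest FPKM among the other 5 groups, each with 0.01 added and both axes on a log scale. Grey points are other measured features without short RNA, red and blue points the 24 endothelial and 14 matrix members. Most members lie far above the dashed line of a 4-fold ratio, whereas EGFL7 and NOS3 lie near the line of equality and CAV1 and TIMP3 below it.

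The low values outside WT mock can be read against the size of 1 fragment. In genes with a single GENCODE transcript of at least 2000 bases, low FPKM values multiplied by length fell on steps. Between 83.8% and 90.4% of them in each group lay within 0.25 of a whole number of steps. Evenly spread values would give 50% for a step fixed beforehand. Here the step of each group was the best-fitting one for these same values, so part of the excess was built in. The step stood for 0.0124 FPKM times kilobases in WT mock and 0.0131 to 0.0150 in the other 5 groups. By this WT mock had the smallest step of the 6 columns, near the 0.0131 of WT starved. No error of the step was computed, so which column was the deepest is not known. The estimate depends on the GENCODE lengths. It also takes each column as 1 library, which is not known, and for a mean of 2 samples a step need not be 1 fragment. On a transcript of 3 kilobases, 0.1 FPKM then stands for about 20 to 24 fragments, and 3 fragments for 0.0124 to 0.0150 FPKM. These figures cover counting error only. Values near the lower of these levels thus rest on a few fragments. An exact 0 is quoted only as listed, because EEF1A1, a gene used by every cell, is also listed at 0 in 5 groups.

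Of the 38 members, 24 reached 1 FPKM in WT mock and in no other group. Their median level as a percentage of WT mock was 0.24% in WT starved, 0.25% in WT refed, 0.159% in KO mock, 0.0957% in KO starved and 0.168% in KO refed. These genes were selected through the WT mock value, which is also the denominator, so the percentages are a description. In WT refed they ran from 0.00973% to 23.5% (ANGPT2), and in KO refed from 0 to 7.30% (SOX7). Of the 38, 0 were listed at 0 in the 3 WT groups and 6, 7 and 3 in KO mock, starved and refed. Over all genes, 6401 were listed at 0 in WT mock, 4300 and 4301 in WT starved and refed, and 7075 to 7312 in KO, so for members and for all genes alike the zeros were most numerous in KO. Among all genes, unlike among members, WT mock also had more zeros than the other WT groups. The part of this in the low member values was not tested.

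Markers of other cell types were compared in the same way to describe what else the WT mock column holds. These lists and those below were chosen with earlier results of these data known, so their counts are a description. Of all measured features, 1.78% were 2-fold above and 0.141% 2-fold below every other group in WT mock. The epithelial markers of HCT116 were present there, some above and some below the other WT groups. EPCAM, an epithelial adhesion protein, was at 176 FPKM in WT mock against 150.1, 145, 203, 189 and 179 elsewhere, and the most abundant, KRT8, was at 1011 and 1002, 1148, 2425, 2316 and 2776; keratins have close paralogs and pseudogenes, so these values are uncertain. KRT19 was at 886 FPKM in WT mock and CDH1 (E-cadherin) at 19.6, both above the WT starved and refed values of 515 and 523 for KRT19 and 14 and 13.8 for CDH1, and both below all 3 KO values. Of 17 epithelial and colon markers, 13 were measured and 0 were 2-fold above or below all others in WT mock. Their summed level was 2897 FPKM in WT mock, 2439 and 2921 in WT starved and refed, and 5204 to 6445 in KO. Of the intestinal markers, CDX2, a transcription factor, was at 7.51 FPKM in WT mock, and elsewhere at 8.6, 6.51, 7.1, 9.24 and 7.53, and KRT20 at 1.19 compared with 0.907, 1.18, 0.368, 0.572 and 0.848, whereas CDX1, VIL1, LGALS4 and CEACAM5 were under 1 FPKM in all groups.

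Endothelial genes outside the members were also compared, again in lists chosen with earlier results known, so they are not an independent check. In the list of 25 surface, junction and secreted genes, 22 were measured. Of the list, 14 were 2-fold above all other groups in WT mock, beside 1.78% of features, and 0 were below, beside 0.141%. The summed level was 214.8 FPKM against 67.3 to 137.6 elsewhere. GNG11 (a G protein subunit), ICAM2 (an adhesion molecule of resting endothelium), ESM1 (a proteoglycan of tip cells) and CLEC14A (a lectin of tumour vessels) differed most. They were at 19.3, 12.2, 10.2 and 9.06 FPKM in WT mock against at most 0.261, 0.0964, 0.0232 and 0.0188 elsewhere. PROCR, the protein C receptor, was the most abundant of the list at 60.7 FPKM in WT mock, but it was also at 38.6, 35.5, 69.8, 64.5 and 60.8 elsewhere. Of 11 further transcription factors, 3 were 2-fold above: FLI1 at 2.78, BCL6B at 3.14 and SOX17 at 1.8 FPKM, against at most 0.0151, 0.147 and 0.0285 elsewhere. TAL1 was at 0.985 and at most 0.025. ELK3, an ETS factor of wider use and the most abundant of this list, was at 19.4 FPKM in WT mock against 10.2, 10.2, 33.4, 23 and 21.7 elsewhere. The summed level of these 11 factors was 62.2 FPKM in WT mock, within the range of 30.7 to 68.6 elsewhere.

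Markers of endothelial subtypes were mostly low. Of 8 arterial markers 1 was 2-fold above, BMX, a kinase of arterial endothelium, at 2.29 FPKM against at most 0.0242. NOTCH4, DLL4 and EFNB2 were at 1.17, 1.38 and 8.72 FPKM in WT mock against at most 0.255, 0.496 and 5.37 elsewhere. Of 3 venous markers 0 were, with the nuclear receptor NR2F2 at 8.94 FPKM against 3.76, 6.05, 2.17, 2.38 and 2.42, the receptor EPHB4 at 25.9 against 20.6 to 24, and APLNR, the receptor of apelin, at 0.00639 against at most 0.0314. The lymphatic markers LYVE1, PROX1 and PDPN were at 0.139, 0.0781 and 0.0572 FPKM. SELE, SELP and VCAM1, adhesion molecules of endothelium exposed to cytokines, were at 0.539, 0.188 and 0.102 FPKM, under 1 but each above its highest value elsewhere (0.0263, 0.0188 and 0.00502).

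Blood and stromal markers gave another picture. All 9 leukocyte markers were under 1 FPKM in every group, with a summed level of 0.634 FPKM in WT mock against 0.632 to 0.964 elsewhere. PTPRC (CD45) was at 0.00261 FPKM in WT mock, and 3 of the 9, among them CD3D, were listed at 0 there. The platelet genes PF4, PPBP and GP9 were listed at 0 in WT mock, and ITGA2B was at 2.85 FPKM against 2.57, 2.46, 4.58, 4.58 and 4.88. All 5 erythroid markers were under 1 FPKM in every group, but their sum was highest in WT mock at 0.993 FPKM against 0.0387 to 0.696. HBA2, which shares reads with its near copy HBA1, was the highest of them at 0.639 in WT mock. Of 11 fibroblast markers 9 were under 1 FPKM in all groups, and 0 were 2-fold above in WT mock. The collagen COL1A1 was at 23.6 FPKM in WT mock against 19.9, 31.4, 18.7, 26.7 and 50.7 elsewhere, and COL3A1 at 0.884 and at most 0.399. LUM and THY1 were listed at 0 in WT mock, and DCN and PDGFRA were at 0.00945 and 0.0283 FPKM. POSTN and FAP were low but higher in WT mock than elsewhere, at 0.186 and 0.189 FPKM compared with at most 0.0123 and 0.0543, and TWIST1 was at 3.71 compared with 2.22, 1.7, 3.78, 2.41 and 2.23. Of 9 pericyte and smooth muscle markers 1 was 2-fold above: RGS5, a signalling regulator of pericytes, at 13.6 FPKM against 4.84, 4.96, 0.716, 0.577 and 0.322, whereas PDGFRB, the defining pericyte receptor, was at 0.051 FPKM. NOTCH3 and CSPG4, which pericytes also carry, were at 11 and 5.09 FPKM in WT mock, each within its range elsewhere (6.61 to 17.2 and 3.16 to 7.09). TAGLN, a smooth muscle protein, was at 38.4 FPKM and 3.84, 13.5, 7.36, 5.98 and 28.4.

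**Figure D3:**
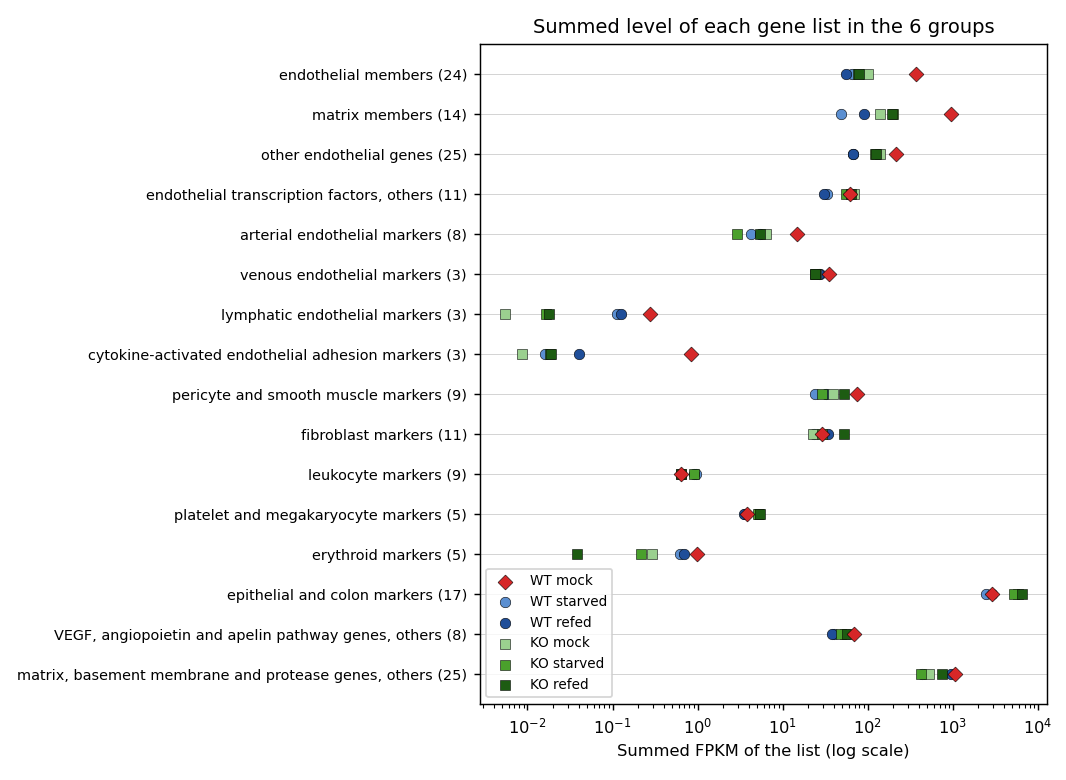
Summed FPKM of each gene list in each group on a log scale, with the number of list genes found in brackets. Red diamonds are WT mock, blue circles the other WT groups and green squares the KO groups. WT mock has the highest sum for both member lists, the other endothelial, arterial, venous, lymphatic and cytokine-activated lists, and also for the pericyte, erythroid, VEGF pathway and other matrix lists. For the leukocyte, platelet, fibroblast, epithelial and transcription factor lists it lies within the range of the other groups.

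The main ligand of the pathway was present in all groups. VEGFA, which binds KDR and FLT1, was at 29.8 FPKM in WT mock against 23.3, 23.6, 33.4, 30.6 and 37.4 elsewhere. Of 8 genes of the VEGF, angiopoietin and apelin pathways outside the members, 3 were 2-fold above all others in WT mock: the co-receptor NRP1 (4.14 against at most 0.6 FPKM), the placental growth factor PGF (14.1 against at most 4.05) and VEGFC (1.07 against at most 0.00579). NRP2 was at 4.99 FPKM in WT mock against at most 2.42 elsewhere.

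Of 25 matrix, basement membrane and protease genes outside the members, 22 were measured and 12 were 2-fold above, beside 1.78% of features. COL5A1, a fibrillar collagen chain, was at 18.1 FPKM against at most 0.0305, the stromelysin MMP10 at 4.41 against 0.0522 and TGFBI, a secreted adhesion protein, at 8.96 against 1.13. The rest were not called, abundant genes among them. TIMP1 was at 199 FPKM against at most 186 and LAMA5 at 65.2 against at most 78.2. LOXL2 was at 71.8 FPKM against 20.4, 18.1, 64.3, 18.6 and 20.9 elsewhere, so only KO mock was near WT mock.

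Over all genes, 87 that are not short RNA were 4-fold above all others in WT mock, and 72 of them were under 1 FPKM in all other groups. The 24 members among them are 63.2% of the members and 27.6% of the 87. Of the 63 others, 9 are in one of the other endothelial lists. Among the highest of the 63 by WT mock level were the tropomyosin TPM1 (56.3 FPKM, at most 11.3 elsewhere), ANKRD1 (34.2, 0.169), CRIM1 (30.0, 5.39), the hedgehog-binding HHIP (20.5, 0.0813), the protease PRSS23 (20.2, 3.21), GNG11, SRGN, a granule proteoglycan of endothelial and blood cells (18.7, 0.0746), COL5A1 and IGFBP4 (17.7, 0.0792). The 38 members made up 0.254% of the summed FPKM without short RNA in WT mock and 0.0246% to 0.0472% in the other groups. The 87 genes made up 0.389% there and 0.00731% to 0.0288% elsewhere. The source of these transcripts was not tested.

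Of the comparisons that rest on this column and share it, KO mock and WT starved against WT mock are given here; WT refed against WT mock was not analysed here. Between KO mock and WT mock, 31 of 38 members were 2-fold lower and 1 (TIMP3) higher, beside 3.22% and 2.27% of features. The median difference was -3.07 for the members and 0.07 for all features. Between WT starved and WT mock the same 31 members were 2-fold lower and 0 higher, beside 3.91% and 1.03%, with medians of -2.82 and -0.19. Both comparisons use the value that chose the members. They are not read as a response to knockout or starvation, since the source of the WT mock transcripts was not tested.

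In 5 comparisons that leave WT mock out, 0 of the 24 endothelial members passed 2-fold; KO refed against KO mock was not analysed here. Between KO and WT in starved cells the log2 differences of the 24 ran from -0.22 to 0.38, where 2.59% of features were 2-fold higher and 1.46% lower. In refed cells they ran from -0.26 to 0.55, where 3.41% were higher and 1.51% lower. At such shares few or none of 24 genes would pass, and the count of 0 does not set these members apart. Between refed and starved cells the differences ran from -0.53 to 0.12 in WT and from -0.08 to 0.07 in KO, and between starved and mock KO cells from -0.40 to 0.18. The highest of these values, 0.55, was that of EGFL7. Only EGFL7, ESAM, MMRN2, NOS3 and SOX18 were near 1 FPKM or above in these columns, so for the other 19 the log2(FPKM + 1) scale leaves little room for a difference.

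Among the matrix members a few did differ. In starved cells 2 of 14 were 2-fold higher in KO than in WT (CAV1 and TIMP3) and 1 lower (VIM), at the shares of features just given. In refed cells 2 were higher (CAV1 and TIMP3) and 2 lower (VIM and THBS1). CAV1, the coat protein of caveolae, was at 68.3, 35.7 and 44.1 FPKM in WT cells (mock, starved, refed), compared with 124, 183 and 165 in KO cells. All 3 KO values of CAV1 were above all 3 WT values, as they were for 25.5% of features, and the log2 difference was 0.84, 2.32 and 1.88 in the 3 states. TIMP3, a matrix-bound inhibitor of metalloproteinases, was at 4, 3.68 and 4.19 FPKM in KO and 0.315, 0.185 and 0.228 in WT, again with all KO values above all WT values, with log2 differences of 1.93, 1.98 and 2.08.

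VIM was lower in KO also where WT mock takes no part: the log2 difference was -1.09 in starved and -1.17 in refed cells, from 1.21 and 1.29 FPKM in WT to 0.0351 and 0.0212 in KO. LAMA4 had the same pattern just short of 2-fold, with log2 differences of -0.92 and -0.82. On 3 kilobases, 1 FPKM stands for over 200 fragments at the estimated depth, if each column is 1 library. By that estimate neither difference is near the counting limit, but with 1 value per group it has no replicate check. All these differences are on the deposited scale, on which the median of all features was 0.19 higher in KO than in WT in starved and 0.22 in refed cells.

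THBS1 was the 1 member that differed 2-fold between refed and starved cells, in both genotypes. It was at 0.798 FPKM in starved and 35.7 in refed WT cells (log2 4.35), and at 0.764 and 14 in KO (log2 3.09), beside 1.69% and 1.98% of features that were 2-fold higher. The refed level was lower in KO by 1.29 on the log2 scale; whether the response differs between genotypes was not tested. No member was 2-fold lower in refed cells (0.684% of features in WT, 0.446% in KO), and 0 were 2-fold higher or lower between KO starved and KO mock (0.951% and 1.18%). FN1 was closest there, at 1.78 and 0.857 FPKM in KO mock and starved (log2 -0.58).

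**Figure D4:**
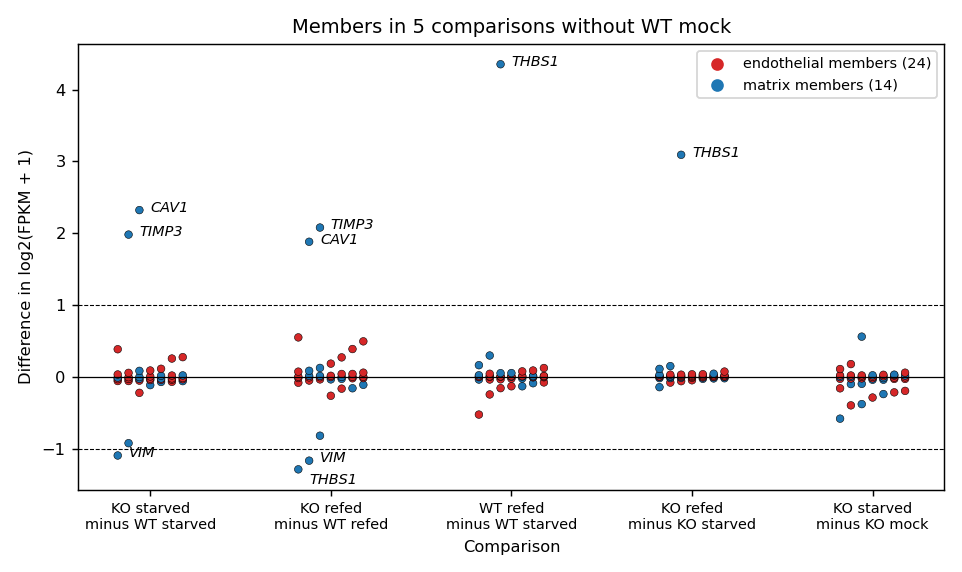
Difference in log2(FPKM + 1) for each of the 38 members in 5 comparisons without WT mock, with red points for endothelial and blue for matrix members and dashed lines at 2-fold. All red points lie between -0.53 and 0.55, and the named blue points are CAV1, TIMP3, VIM and THBS1.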

How the data were processed

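RNA of HCT116 cells purified with oligo-dT beads was sequenced, per the labels' protocols. The submitters' processing notes name FastQC, cutadapt, TopHat2 and build hg19 without versions. FPKM values were computed by the authors, and each deposited table holds 1 FPKM column named for its group, per the file headers. The program that computed them, its annotation and the handling of the 2 samples per group are not given in the sources used here.

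Differences were taken as log2(FPKM + 1) on the values as deposited. Features that reached 1 FPKM in any group, 13456 with 410 short RNA, were compared; member counts are out of all 38. With 1 value per group there is no test, and a call is a 2-fold difference. Rules for naming genes: all members, with every value for those that reached 5 FPKM in any group or 1 FPKM outside WT mock; from each of 14 other lists at most 4 genes with the largest WT mock difference and the most abundant; and the 10 highest non-members among genes 4-fold above, of which 1 is not reported here. EPCAM, KRT19, CDH1, CDX2, VIL1, THY1, DCN, PDGFRA, TWIST1, NOTCH3, CSPG4, TIMP1, LOXL2, LAMA5 and EDN1 fall outside these rules and were chosen after their values were seen. ADGRL4 was counted once, its older symbol being absent. Members and lists were chosen with earlier results of these data known. Fold calls and the fragment step were tested on simulated data. For the fold calls, simulated levels were about 5 FPKM or more with little noise and 4-fold changes. They do not cover the low values of most members outside WT mock. For the step, counts of 1 library with little noise were simulated. These do not cover a mean of 2 samples or larger errors in transcript length. Python 3.11.15, numpy 2.4.6, pandas 2.3.3 and matplotlib 3.10.9 were used. Alternatives were pseudocounts of 0.1 and 5, other filters, 2 rescalings and, added after seeing the data, leaving out short RNA.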

Additional observations from a re-analysis of the deposited data

Results flagged for a closer look

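CAV1 went in opposite directions between mock and starved culture in the 2 genotypes: the log2 difference, starved minus mock, was -0.92 in WT (68.3 to 35.7 FPKM) and 0.56 in KO (124 to 183 FPKM). Members were looked at for this when both differences were at least 0.5 in size and of opposite sign, and CAV1 was the 1 such member. The difference between the genotypes was not tested, there is 1 value per group, and the WT value uses WT mock, the column in which endothelial genes were high. Between starved and refed cells, which leave that column out, CAV1 differed by 0.30 in WT and -0.14 in KO.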

How the results depend on the processing

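No paired analysis was possible because each group has 1 column, attached to the replicate 1 sample but named for the group alone, and for the same reason no replicate could be left out. Of 163 values recomputed under other settings for 27 results, 135 were within 1.5 times the reported count, or within 0.5 for the median. Only the median could change sign, and it did not. Part of this agreement was fixed in advance. Dropping the filter on low values could not alter a 2-fold count, and lists under 1 FPKM in every group stayed at 0 in all settings. The count of members 2-fold above all others in WT mock, 31, ran from 21 to 32 under the 6 settings tried for it. A pseudocount of 0.1 FPKM gave 204 features 4-fold higher in WT mock where 95 were counted with short RNA, a member median of -5.89 between KO mock and WT mock where -3.07 is reported, 3 arterial markers, 2 members higher in refed than in starved WT cells, and 3 and 6 members lower in KO than in WT in starved and refed cells. A pseudocount of 5 FPKM gave 25 features, a median of -1.66, 1 VEGF pathway gene, 0 arterial markers, 0 transcription factors, 6 matrix genes, 7 other endothelial genes and 0 pericyte markers. It also gave 1 member higher in KO in starved and 1 in refed cells, and 0 and 1 lower. Keeping features at 5 FPKM or more gave a median of -4.32, 1 VEGF pathway gene, 0 arterial markers, 0 transcription factors, 7 matrix genes, 7 other endothelial genes, and 1 member higher in KO in each of starved and refed cells, since fewer genes are tested. Median-ratio and upper-quartile rescaling each gave 2 members lower in KO than in WT in starved cells where 1 is reported; they move the median of all features between these groups from 0.19 to 0 and -0.01. The cause of the other shifts was not tested beyond the settings' own construction: a larger pseudocount shrinks differences at low levels. Without short RNA 87 of the 95 features were counted. Depth, estimated and not stated, limits values of a few hundredths of an FPKM.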

Other observations

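EDN1, which encodes the vasoconstrictor peptide endothelin, was, like THBS1, 2-fold above all others in WT mock and 2-fold higher in refed than in starved cells of both genotypes. It was at 16.4 FPKM in WT mock and 0.274, 4.18, 0.131, 0.258 and 4.22 elsewhere (starved and refed WT cells, then mock, starved and refed KO cells). The log2 difference between refed and starved cells was 2.02 in WT and 2.05 in KO. Of all 13046 features apart from short RNA, 0.851% were 2-fold higher in refed cells of both genotypes. EDN1 was chosen after its values were seen.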
